A study of Sus scrofa with 24 samples.

Results

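Astrocytes are the glial cells that take up transmitters and potassium around synapses, couple to one another through gap junctions and wrap blood vessels with their end-feet. Their number and their branching increase after birth, while the neurons they serve are forming synapses. The genes described here are 9 widely used markers of these cells and PEA15, a small phosphoprotein that is abundant in astrocytes, binds protein kinases in the cytoplasm and proteins of the death receptor pathway. The 10 genes were chosen by name. The markers were taken for their cell type, and PEA15 because it was lower in AGA piglets on the HF diet than in AGA piglets on the CON diet in these same libraries. All 10 were found among the 38882 genes listed in the count files, and all 10 were among the 16326 that passed a filter on low counts.

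Messenger RNA was sequenced from the hippocampi of 24 crossbred piglets (PIC Camborough dams, PIC 359 sires) at postnatal day 14. Piglets were small for gestational age (SGA) or appropriate for gestational age (AGA) and were fed a control formula (CON), with its fat as triglyceride oils, or a formula with hydrolyzed fat (HF). Each combination of size and diet (AGA CON, SGA CON, AGA HF, SGA HF) held 6 piglets, 3 male and 3 female. Every litter gave 1 SGA and 1 AGA piglet, matched for sex and fed alike, so that there were 12 litters, 6 per diet, brought in as 2 cohorts of 6 litters. SGA was defined by birth weight in litters born naturally at term. Dissected tissue was sequenced whole, so that fewer cells of a type and less RNA of a gene per cell cannot be told apart in any of the values below. Whether different litters shared a sow is not given in the sources used here.

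Library totals ranged from 6017336 to 9284355 reads on listed genes (median 7346072). Values are in CPM, read counts relative to a library's total, with the totals scaled by the TMM method. AGA CON replicate 2 stood apart. It had the highest value of its group for all 10 genes, and the highest of the 24 libraries for 9 of them. The exception was S100B, which was highest in AGA HF replicate 4 (litter 7). In AGA CON replicate 2 the summed CPM of a list of 9 neuronal genes was 0.533 of the median library, that of a microglial list was 1.79 times and that of an endothelial list 1.61 times the median. In AGA HF replicate 4 the neuronal list was at 0.666 of the median library, the microglial list at 1.55 times, the endothelial and oligodendrocyte lists at 1.31 times each and a meningeal list at 1.57 times the median. AGA CON replicate 2 also had the most reads in the 1 entry of the count files that carries no gene identifier, 1.62% against a median of 0.857%. Many results that include this library are also given without it, but not all. The genes closest in pattern, and the correlations with gene lists over differences between littermates, are given only with it. Correlations of PEA15 with single markers over litter means are not given with the litter of this library alone left out. In SGA HF replicate 4 the summed level of a pituitary list was 10.8 times the median, and this library was neither the highest nor the lowest of the 24 for any of the 10 genes. The part of these lists in the results below was not tested.

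GFAP encodes the intermediate filament of astrocytes. It lies on chromosome 12 of Sscrofa10.2 from 18700993 to 18711304 on the plus strand (gene 396562) and had the highest mean CPM of all genes tested, 8236 ± 1099 CPM (SD, n = 24). Between 0.656 and 1.18% of all reads in a library came from this gene, on 42066 to 80233 counts. PEA15 (gene 100152480), on chromosome 4 from 98204998 to 98215557 on the minus strand, ranked 11 at 3336 ± 335 CPM. S100B, a calcium-binding protein, had 1175 ± 173 CPM, and its gene (100623510) lies on a scaffold that was not placed on a chromosome. The lowest count among these 3 genes in any library was 6386, for S100B.

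The glutamate system of astrocytes is represented by 3 genes. SLC1A2 (gene 100627068, chromosome 2 from 27968216 to 28136634), the main glutamate transporter of mature astrocytes, had 875 ± 132 CPM (SD, n = 24). GLUL, which converts the glutamate taken up to glutamine (gene 396944, chromosome 9 from 135909152 to 135968442), had 335 ± 58.6 CPM. SLC1A3 (gene 100516047, chromosome 16 from 22924641 to 23007781), the transporter that predominates in immature astrocytes and in radial glia, was the lowest of the 3 at a mean of 70.9 CPM, with values from 28.7 to 125 CPM.

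GJA1 encodes connexin 43, the main protein of astrocytic gap junctions (gene 100518636, chromosome 1 from 45543880 to 45557193), and had 202 ± 35.2 CPM. The last 3 genes were low. ALDH1L1, a folate enzyme used as a marker of most astrocytes (gene 100622210, on an unplaced scaffold), had 26.4 ± 5.63 CPM. SOX9, a transcription factor of the glial lineage (gene 396840, chromosome 12 from 9029449 to 9032820), had 19.5 ± 4.50 CPM. AQP4, the water channel of the end-feet (gene 100126277, chromosome 6 from 104387592 to 104394409), had 13.2 ± 5.20 CPM. Its annotated exons in these files cover only 739 bases, and it was measured on 34 to 185 counts per library. Even the lowest AQP4 value, 5.60 CPM, was above the 0.323 to 0.499 CPM that 3 counts stand for. No exon of the 10 genes overlaps an exon of another listed gene on either strand.

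Per kilobase of annotated exon, the order of mean levels was GFAP (2760 CPM per kb), PEA15 (1332), S100B (807), GLUL (247), SLC1A2 (72.9), GJA1 (65.5), SLC1A3 (33.0), AQP4 (17.9), SOX9 (10.6) and ALDH1L1 (9.37). Most neighbours in this order were separated in all 24 libraries. SLC1A2 was above GJA1 in 22 of 24, and SOX9 was above ALDH1L1 in 16 of 24, so that the last 2 genes do not differ beyond their spread. The levels depend on the exons annotated, which for AQP4 are few. The measured RNA quality, whose average the paper ascribes to pre-spliced RNA, was not taken into account in this order. Relative spread was smallest for PEA15, with a coefficient of variation of 10.0% over the 24 libraries, and next for GFAP (13.3%), S100B (14.7%) and SLC1A2 (15.1%). It was largest for SLC1A3 (33.9%) and AQP4 (39.3%).

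**Figure D1:**
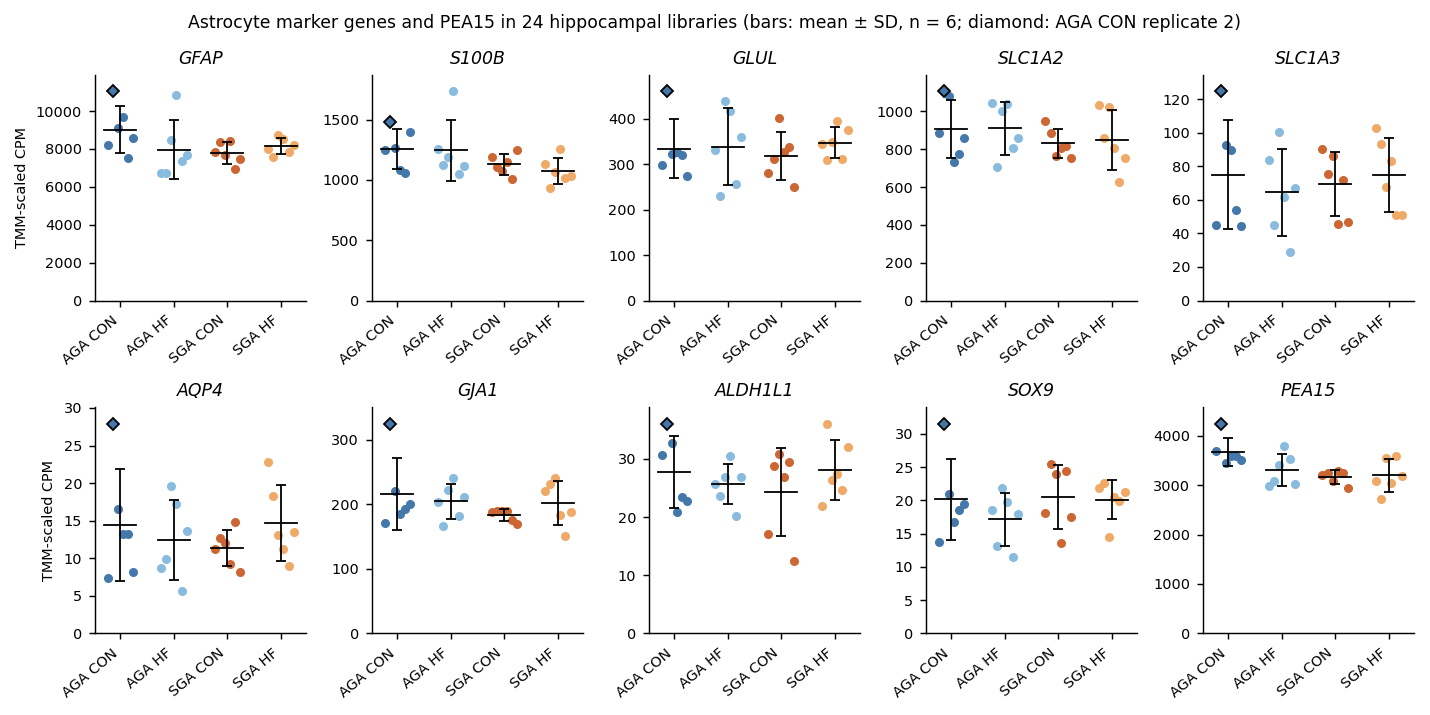
TMM-scaled CPM (vertical axes, each from 0) of the 9 astrocyte markers and PEA15 in the 4 groups of 6 piglets, with 1 point per library and the mean ± SD. The diamond is AGA CON replicate 2, the highest library of its group in every panel, and the 4 groups overlap for each of the 9 markers.

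The first comparison is between SGA and AGA piglets. Of the 9 markers, 0 were called in the main effect of size (FDR-adjusted p under 0.4, the study's threshold, in edgeR's quasi-likelihood test), where 0.478% of all tested genes were called. An unadjusted p under 0.05 was found for 1 marker, S100B, in a contrast where 10.6% of all tested genes passed that level, and the markers' median log2 fold change was -0.0031, against -0.0023 over all tested genes. The log2 fold changes lay between -0.14 for S100B and 0.13 for SOX9, of which 4 were above and 5 below 0. The median standard error was 0.07. GFAP, the best measured of them, had a log2 fold change of -0.0031 with a 95% interval from -0.10 to 0.09.

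S100B was the marker with the lowest levels in SGA relative to AGA piglets. In AGA CON piglets its lowest, median and highest values were 1059, 1255 and 1481 CPM, and in SGA CON piglets 1004, 1127 and 1247 CPM. In AGA HF piglets they were 1052, 1155 and 1735 CPM, and in SGA HF piglets 933, 1049 and 1253 CPM. SGA values were lower at each of these marks on both diets, and the ranges overlapped. The main effect of size had a log2 fold change of -0.14 (standard error 0.06) and an FDR-adjusted p of 0.644 (edgeR), so that it was not called. In the pairwise comparisons it was -0.14 on CON and -0.15 on HF (FDR-adjusted p = 0.783 and 0.759, edgeR). It was -0.22 within cohort 1 and -0.15 within cohort 2, each from a fit on 12 piglets without surrogate variables.

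Within litters, S100B was lower in the SGA piglet in 11 of 12 pairs. The exception was a CON litter at 0.08, and the largest difference was -0.47 in HF litter 7. The mean difference was -0.17 on the log2 scale (SD 0.15, n = 12; two-sided exact sign-flip test over litters, p = 0.00195, and p = 0.146 after Benjamini-Hochberg adjustment over all 16326 genes). In this test 12.6% of all genes had an exact p under 0.05 (6.81% in the downward direction), and among the 9 markers 1 did. Leaving out litter 4, which holds AGA CON replicate 2, the S100B difference was -0.15 (exact sign-flip test, p = 0.00391), and leaving out litter 7, which holds AGA HF replicate 4, it was also -0.15 (exact sign-flip test, p = 0.00391). With litter as a fixed term and no surrogate variables, S100B was the only marker called, at -0.17 (standard error 0.05, FDR-adjusted p = 0.383, edgeR), and 420 genes in all were called in place of 78. That fit holds no contrast of HF minus CON, so its FDR was adjusted over fewer contrasts than the 7 of the main fit. With litter as a random effect (limma voom, correlation 0.115) 0 markers were called, and S100B was at -0.17 (standard error 0.07, FDR-adjusted p = 0.722). When the size contrast was adjusted on its own, S100B also passed (FDR-adjusted p = 0.352, edgeR), among 1200 genes.

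The other 8 markers were not uniformly higher or lower in SGA piglets within litters. SOX9 was higher in the SGA than in the AGA piglet in 8 of 12 litters, GLUL and SLC1A3 in 7, AQP4 in 6, and GFAP, SLC1A2, ALDH1L1 and GJA1 in 5. Mean differences ran from -0.11 for GJA1 and SLC1A2 to 0.14 for SOX9, and the exact p of these 8 markers lay between 0.153 and 0.975. The spread between litters was wide for the low genes, with an SD of 0.73 for AQP4 and 0.67 for SLC1A3, against 0.21 for GFAP.

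The other markers overlapped between all 4 groups. For GLUL the lowest, median and highest values were 275, 322 and 461 CPM in AGA CON piglets and 249.7, 319 and 403 CPM in SGA CON piglets. SLC1A2 had group means of 907 ± 155 CPM (SD, n = 6) in AGA CON, 910.5 ± 140.4 in AGA HF, 831 ± 75.3 in SGA CON and 851 ± 159 CPM in SGA HF piglets. These means differed by less than the SD within each AGA group, as did those of SLC1A3, which ran from 64.4 ± 25.8 CPM in AGA HF to 75.1 ± 32.4 CPM in AGA CON piglets.

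GJA1 was at 216 ± 55.9 CPM (SD, n = 6) in AGA CON piglets and at 184 ± 8.97 CPM in SGA CON piglets. AGA CON replicate 2 alone reached 325 CPM, and the other 5 AGA CON values were at or below 221 CPM. AQP4 ranged from 7.38 to 27.9 CPM in AGA CON piglets, with the same library at the top, and from 8.22 to 14.8 CPM in SGA CON piglets. Group means of ALDH1L1 lay between 24.3 and 28.0 CPM, and those of SOX9 between 17.1 and 20.5 CPM, both closer together than the values within any group.

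Genes of oligodendrocytes, the myelin-forming glia, were lower in SGA piglets in the same litters. S100B is also expressed by cells of that lineage. Of a list of 10 oligodendrocyte genes, 10 had a negative mean difference within litters, 8 of them with an exact p under 0.05 (6.81% of all tested genes were lower at that level), and the median was -0.33. In the edgeR fit their median log2 fold change for size was -0.20, 4 had an unadjusted p under 0.05 (4.95% of all tested genes were lower at that level) and 0 were called. MBP and MOBP, the most abundant of them, had mean differences within litters of -0.32 and -0.30. With AGA CON replicate 2 left out, 3 of the 10 were called for size, where 2.35% of all tested genes were (UGT8, MOBP and MAL, named after their values were seen, at -0.24, -0.20 and -0.41). The summed level of the list had a median of 22271 CPM in AGA CON, 22967 in AGA HF, 16862 in SGA CON and 18287 in SGA HF piglets. Of the 9 neuronal genes tested, 8 were higher in the SGA piglet on average and 3 had an exact p under 0.05. In either direction, 12.6% of all tested genes had one. Over the littermate differences, S100B had an r of 0.19 with the mean standardized level of the oligodendrocyte list, 0.77 with that of a longer list of astrocyte genes and -0.64 with that of the neuronal list. Its r was 0.60 with the list of oligodendrocyte progenitors and 0.67 with the endothelial list. OLIG1, a transcription factor of the oligodendrocyte lineage, had a mean difference within litters of -0.17 (exact sign-flip test, p = 0.000488). That p is the smallest that 12 litters allow. Of the 8 progenitor genes, 6 were lower in the SGA piglet on average, and OLIG1 was the 1 with an exact p under 0.05. In the edgeR fit OLIG1 was at -0.10 for size and was not called (FDR-adjusted p = 0.747). The part of these lists in the S100B difference was not tested.

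**Figure D2:**
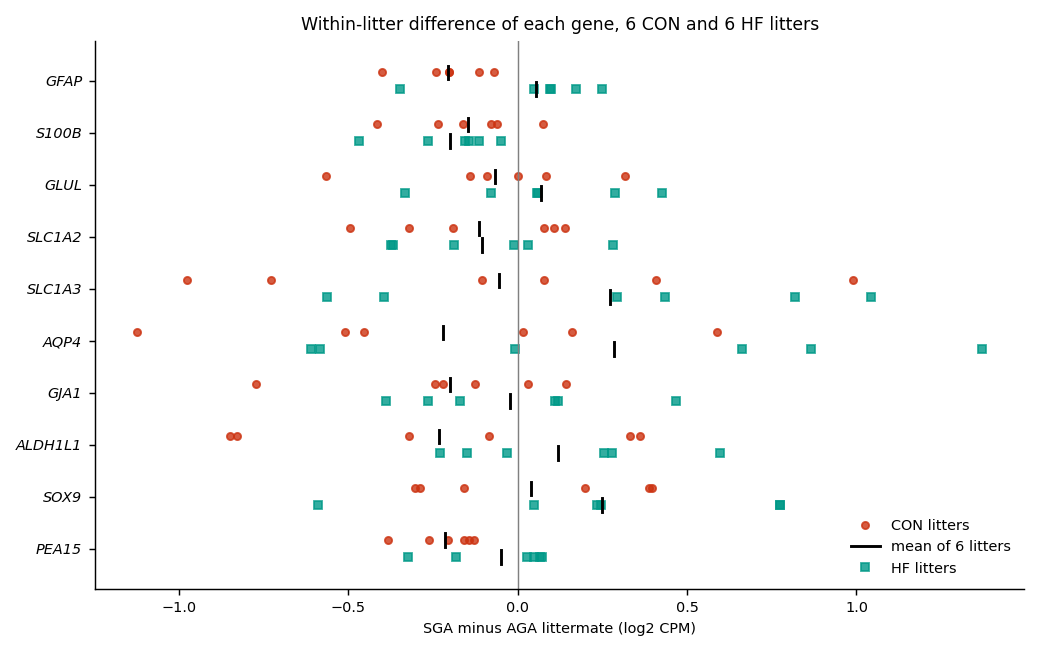
SGA minus AGA difference within each of the 12 litters (horizontal axis, log2 CPM) for each gene, with CON litters as circles, HF litters as squares and the mean of each set of 6 litters as a black bar. S100B lies below 0 in 11 of 12 litters, and GFAP lies below 0 in all 6 CON litters and above 0 in 5 of 6 HF litters.

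The second comparison is between the diets. For the main effect of diet 0 of 9 markers were called, where 0.159% of all tested genes were. The markers' median log2 fold change was -0.05 (0.0020 over all tested genes), 7 were below 0, and 1, GFAP, had an unadjusted p under 0.05 (7.09% of all tested genes). GFAP was not called, at -0.11 (standard error 0.05, FDR-adjusted p = 0.714, edgeR). Since littermates shared a diet, the independent unit is the litter. Over litter means, 0 of the 9 markers had an exact p under 0.05 (two-sided exact permutation test of 6 HF against 6 CON litters), where 4.1% of all genes did, and marker differences lay between -0.11 for SOX9 and 0.08 for ALDH1L1. HF and CON litters overlapped for every gene.

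GFAP had its highest level in AGA CON piglets, with a lowest, median and highest value of 7506, 8844 and 11044 CPM. The AGA HF piglets had 6733, 7509 and 10865 CPM. SGA piglets were closer together, at 6939, 7756 and 8444 CPM on CON and 7589, 8106 and 8753 CPM on HF. AGA HF replicate 4 was as high as the upper end of the AGA CON group, and the other 5 AGA HF piglets were at or below 8458 CPM. The diet contrast in AGA piglets was -0.22 (standard error 0.07, unadjusted p = 0.00469, where 6.09% of all tested genes had a p under 0.05, and FDR-adjusted p = 0.529, edgeR), and in SGA piglets it was -0.00091 with a 95% interval from -0.13 to 0.13. No marker was called in either contrast, where 0.0674% and 0.0919% of all tested genes were.

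The GFAP difference in AGA piglets was smaller without a single library. Without AGA CON replicate 2, GFAP in the diet contrast among AGA piglets was -0.11 (standard error 0.08, FDR-adjusted p = 0.793, edgeR), and the markers' median went from -0.09 to 0.06, with 6 of 9 above 0 in place of 2 of 9. Within cohort 1 it was -0.36 and within cohort 2 -0.0028, each again on 12 piglets (FDR-adjusted p = 0.972 and 0.999, edgeR). The GFAP level followed the neuronal list downward over the 24 libraries (r -0.73, and -0.60 without AGA CON replicate 2), and the summed neuronal level was lowest in AGA CON replicate 2. The part of that list in the GFAP difference was not tested.

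Within litters, GFAP was lower in the SGA piglet in all 6 CON litters and higher in 5 of the 6 HF litters. The mean difference was -0.20 on CON (SD 0.11) and 0.05 on HF (SD 0.21), and the HF exception was litter 7, with AGA HF replicate 4, at -0.35. The diet effect on the littermate difference was 0.26 (two-sided exact permutation test of 6 against 6 litters, p = 0.0238, and 0.99 after adjustment over all genes), in a test where 4.36% of all genes had an exact p under 0.05. It was 0.22 without litter 4 (exact permutation test, p = 0.0584) and 0.34 without litter 7 (exact permutation test, p = 0.0022). The edgeR interaction was 0.22 (standard error 0.09, FDR-adjusted p = 0.682), and 0 of 9 markers were called for it, where 0.049% of all tested genes were. GFAP was the 1 marker with an unadjusted p under 0.05 for it, where 4.01% of all tested genes had one. The interaction of GFAP was 0.14 without AGA CON replicate 2.

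None of the other 8 markers had an exact p under 0.05 for the diet effect on the littermate difference. It was above 0 for 8 of the 9 markers, with a median of 0.21, while the median over all tested genes was -0.0019. In the edgeR interaction 6 of the 9 markers were above 0, with a median of 0.04, and without AGA CON replicate 2 it was 3 of 9, with a median of -0.03. In the exact comparison over litters, S100B was the marker below 0, at -0.05. For AQP4 the difference within litters was -0.22 on CON and 0.28 on HF, with SDs of 0.60 and 0.81 (exact permutation test, p = 0.26). In the pairwise size contrasts 0 of 9 markers were called on CON, where 0.129% of all tested genes were, and 0 of 9 on HF, where 0.288% were.

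PEA15 was chosen on its difference between AGA HF and AGA CON piglets, so its values in those groups are given as a description. Its lowest, median and highest values were 3441, 3583 and 4237 CPM in AGA CON piglets and 2982, 3243 and 3796 CPM in the AGA HF group. They were 2933, 3226 and 3279 CPM on CON and 2721, 3133 and 3599 CPM on HF among SGA piglets. All 6 AGA CON values were above all 6 SGA CON values, and the AGA CON and AGA HF ranges overlapped. PEA15 was chosen on the same AGA CON values, and the share of all tested genes that separate AGA CON from SGA CON was not counted. The fitted log2 fold changes were -0.23 (standard error 0.05) for HF against CON in AGA piglets, -0.14 (standard error 0.03) for the main effect of diet and 0.18 (standard error 0.06) for the interaction. The first of these values chose the gene, and the other contrasts share its samples.

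The diet contrast in SGA piglets did not enter the choice of PEA15. There its log2 fold change was -0.05 (standard error 0.05, 95% interval from -0.14 to 0.04, FDR-adjusted p = 0.889, edgeR). Without surrogate variables it was 0.01, and without AGA CON replicate 2 it was -0.0087.

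The size of the PEA15 value in AGA piglets depended on few libraries and on the surrogate variables. AGA CON replicate 2, at 4237 CPM, was 1.19 times the mean of the other 5 AGA CON piglets, whose mean of 3565 CPM was 7.91% above that of AGA HF piglets. Without it the AGA diet contrast was -0.12 and the main effect of diet -0.06. Without surrogate variables the contrast was -0.15. Within cohort 1 it was -0.26 and within cohort 2 -0.05. Within litters PEA15 was lower in the SGA piglet in 6 of 6 CON litters and in 2 of 6 HF litters, with mean differences of -0.21 (SD 0.10) and -0.05 (SD 0.16). The CON litters share the AGA CON piglets on which the gene was chosen.

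**Figure D3:**
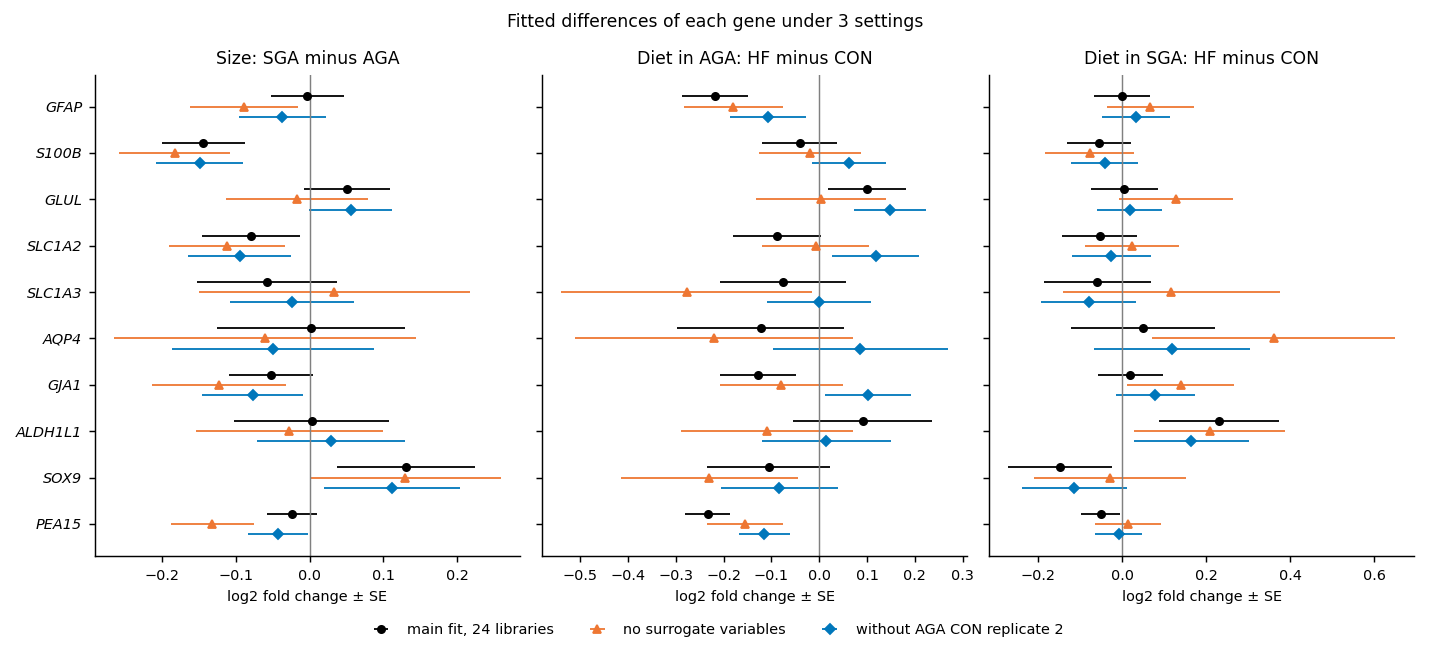
Fitted log2 fold changes ± SE of each gene (horizontal axes) for size, for diet in AGA piglets and for diet in SGA piglets, in the main fit, without surrogate variables and without AGA CON replicate 2. S100B stayed below 0 for size in all 3 settings, and PEA15 for diet in AGA piglets moved from -0.23 to -0.12 without that library.

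The surrogate variables, which absorb variation shared by many genes, weighed more on these genes than on most. They took 52.2% (SLC1A2) to 84.9% (SLC1A3) of the residual variance of the 10 genes, where the median of all tested genes was 48.4%. Cohort made up 42.3% of the variance of the first of them and 40.2% of the third. Between cohorts, 8 of 9 markers had lower litter means in cohort 2. SLC1A3 ranged from 45.1 to 125 CPM in the 12 piglets of cohort 1, with a mean of 83.9 CPM, and from 28.7 to 89.6 CPM in cohort 2, with a mean of 57.9 CPM, a difference of -0.54 between litter means on the log2 scale (exact permutation test, p = 0.0152, and 0.286 after adjustment over all genes). SLC1A2, at 946 ± 127 CPM in cohort 1 and 804 ± 98.3 CPM in cohort 2, differed by -0.23 (exact permutation test, p = 0.026, adjusted p = 0.33). These were 2 of 9 markers with an exact p under 0.05, where 12.5% of all genes had one. Between sexes 1 of the 10 genes passed, SLC1A2, higher in male litters by 0.21 (exact permutation test, p = 0.0411, adjusted p = 0.933), where 5.08% of all genes passed.

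The markers varied together from litter to litter. Over the 12 litter means, Pearson's r between the 36 pairs of markers had a median of 0.60 and ran from -0.09 to 0.88, with 35 pairs above 0. Without litter 4 the median was 0.50, and within the cohorts of 6 litters it was 0.64 and 0.63. Littermate differences, which remove what a litter shares, had a median r of 0.42, and of 0.25 without litter 4. Points in these correlations share libraries and their scaling, and they are given as a description. The genes whose log2 CPM followed the mean standardized level of the 9 markers most closely over the 24 libraries, among 12353 genes with a symbol, were PLPP3 (r 0.90), PRDM16 (0.89), CNN3 (0.88), ZFP36L1 (0.87) and LRIG1 (0.86). PLPP3 encodes a lipid phosphatase abundant in astrocytes. PEA15 followed it at r 0.34 and ranked 2411.

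The genes closest to PEA15 were read in the same way. Over the 24 libraries the genes closest to it were KIF1C (r 0.81), SFT2D1 (0.77), BCAS1 (0.77), MAP4K4 (0.75) and MBP (0.74), with GFAP at 0.67 and rank 25. BCAS1 and MBP are genes of myelinating oligodendrocytes, and KIF1C is a kinesin motor. With the mean standardized level of the 10 oligodendrocyte genes, PEA15 had an r of 0.58, and of 0.59 without AGA CON replicate 2. With the mean of the 9 astrocyte markers its r was 0.34, and 0.04 without that library. With the oligodendrocyte progenitor list it was 0.57, and 0.42 without that library. With the neuronal list it was -0.54, and -0.29 without that library. Over the 12 littermate differences, PEA15 had an r of 0.75 with the longer list of astrocyte genes and 0.50 with the 9 markers. Its r was 0.63 with the oligodendrocyte list, 0.71 with the progenitor list, 0.60 with the endothelial list and 0.46 with the microglial list. With the neuronal list it was -0.77. Over the 24 libraries SLC1A3 was at the other end for the oligodendrocyte list, with an r of -0.33 to it and 0.69 to the other 8 markers. The part of these lists in the PEA15 values was not tested.

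Over 12 litter means, PEA15 was compared with each of the 9 markers. These means hold the AGA values on which PEA15 was chosen, so the relations are given as a description and not as a test. The closest was GFAP (Pearson's r = 0.59, permutation p = 0.0441; Spearman's rho = 0.48, permutation p = 0.114). After adjustment over the 9 relations the permutation p of r was 0.397 for GFAP, and 0 of 9 relations passed 0.05. Without litters 1 and 3, the farthest from the median of PEA15, r was 0.33. It was 0.94 over the 6 litters of cohort 1 and 0.03 over the 6 litters of cohort 2. For the other markers r lay between -0.04 for AQP4 and 0.31 for GLUL.

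**Figure D4:**
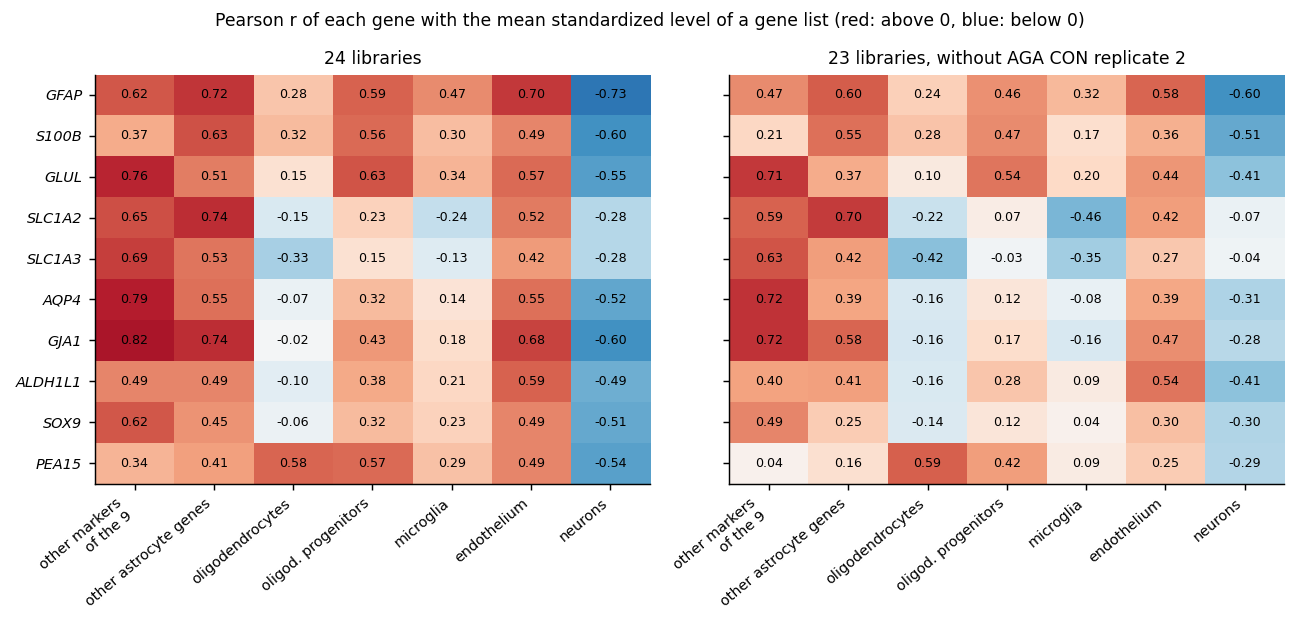
Pearson r, over libraries, of each gene (rows) with the mean standardized log2 CPM of the other markers and of 6 cell type gene lists (columns), with all 24 libraries on the left and without AGA CON replicate 2 on the right. PEA15 has its highest r with the oligodendrocyte list in both panels, and the 9 markers are negatively related to the neuronal list in both.

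A longer list of astrocyte genes was read the same way. Of 24 genes, 22 were found and tested, and 0 were called for size, diet or their interaction. CLU, a secreted chaperone, was the most abundant at 6067 ± 754 CPM (SD, n = 24) and had log2 fold changes of -0.05 for both size and diet. ALDOC, a glycolytic enzyme of astrocytes, had 2429 ± 220 CPM and log2 fold changes of -0.03 and 0.08. For diet, 17 of 22 had a negative log2 fold change and 5 an unadjusted p under 0.05, all of them negative, where 3.5% of all tested genes were lower at that level. With 23 libraries, AGA CON replicate 2 left out, 11 of 22 were negative and 1 had such a p (5.98% of all tested genes).

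Genes of immature and of reactive astrocytes gave no call for size, diet or the interaction with 24 libraries. Of 11 radial glia and immature astrocyte genes tested, 0 were called. FABP7, a fatty acid binding protein of radial glia, had 716 ± 142 CPM and VIM, an intermediate filament, 425 ± 81.5 CPM, with log2 fold changes for size of 0.04 and -0.04. For diet FABP7 was at -0.18 (standard error 0.06), not called. Of 12 reactive astrocyte genes tested, 0 were called, and the most abundant, SERPING1 and C3, components of the complement system, had 106 ± 22.4 and 47.3 ± 21.1 CPM. Leaving out AGA CON replicate 2, 1 reactive gene was called lower in SGA than in AGA piglets on CON, where 0.787% of all tested genes were called (CXCL10, a chemokine named after its values were seen, at -1.28). The summed level of the reactive list was highest in SGA CON replicate 3, at 1.88 times the median library, and next in AGA CON replicate 2, at 1.75 times.

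Genes that work with the markers were read next. Of 13 tested genes that handle glutamate and glutamine, 0 were called, and the most abundant were SLC17A7, the vesicular glutamate transporter of excitatory neurons (3380 ± 648 CPM, log2 fold change for size 0.14, standard error 0.04, FDR-adjusted p = 0.506, edgeR), and GOT1. Of 8 genes of the complex that anchors AQP4 at the end-feet 0 were called, with AGRN (121 ± 15.2 CPM) at 0.02 for size. Of 7 connexin genes tested, GJA1 among them, 0 were called. Without AGA CON replicate 2, where 2.35% of all tested genes were called for size, SLC17A7 passed the threshold (0.15, FDR-adjusted p = 0.329, edgeR), and it also did for diet (-0.19, FDR-adjusted p = 0.180, edgeR), where 2.56% of all tested genes were called.

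Of 15 tested partners and kinases of PEA15, 1 was called for size, where 0.478% of all tested genes were. CAMK2A, a calcium-dependent kinase of excitatory synapses that phosphorylates PEA15, was called higher in SGA piglets by a log2 value of 0.13 (standard error 0.03, edgeR FDR-adjusted p = 0.308), at 3481 ± 307 CPM. Within litters its mean difference was 0.10 (exact sign-flip test over litters, p = 0.0991). With AGA CON replicate 2 left out, CAMK2A was again the 1 gene of the 15 called for size (0.14, FDR-adjusted p = 0.203, edgeR, with 2.35% of all tested genes called), and it was also the 1 called for diet in AGA piglets (-0.16, FDR-adjusted p = 0.298, edgeR, with 2.63% of all tested genes called).

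Markers of other cells were set beside the astrocyte genes. For size, 0.478% of all tested genes were called. SYN1, a synaptic vesicle protein, was the neuronal gene called for it, at 0.16 (FDR-adjusted p = 0.396, edgeR). FOXJ1, a factor of ciliated ependymal cells, was called at 0.52 (FDR-adjusted p = 0.224, edgeR), with 65.1 ± 17.0 CPM. The ranges of summed CPM over the groups overlapped for microglia (127 to 390), endothelium (160 to 324) and meninges (129 to 253). OLIG1 and GPR17 were the most abundant of 8 genes of oligodendrocyte progenitors, C1QC and C1QA of 10 microglial genes, CLDN5 and FLT1 of 7 endothelial genes, OGN and COL3A1 of 6 meningeal genes and POMC and GH1 of 3 pituitary genes tested. None of these 5 lists held a called gene for size, diet or the interaction with all 24 libraries. GH1, the growth hormone gene of the pituitary, was called for diet in SGA piglets (FDR-adjusted p = 0.0181, edgeR). Among these piglets its mean CPM was 51.6 on HF (SD 124.5, n = 6) and 0.126 on CON (SD 0.309, n = 6). The summed pituitary list, which holds GH1, reached 384 CPM in SGA HF replicate 4. Every other SGA HF library was at or below 44.1 CPM for that list. Without SGA HF replicate 4, the smallest FDR-adjusted p of any gene in this contrast was 0.104 (edgeR). The call is therefore given as a description of 1 library and not as a diet effect. Leaving out AGA CON replicate 2, SYN1 (-0.14) and NEFL (-0.17), a neurofilament protein, were called for diet, where 2.56% of all tested genes were. In that fit, which still held SGA HF replicate 4, GH1 was called for the interaction, where 0.529% of all tested genes were.

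**Figure D5:**
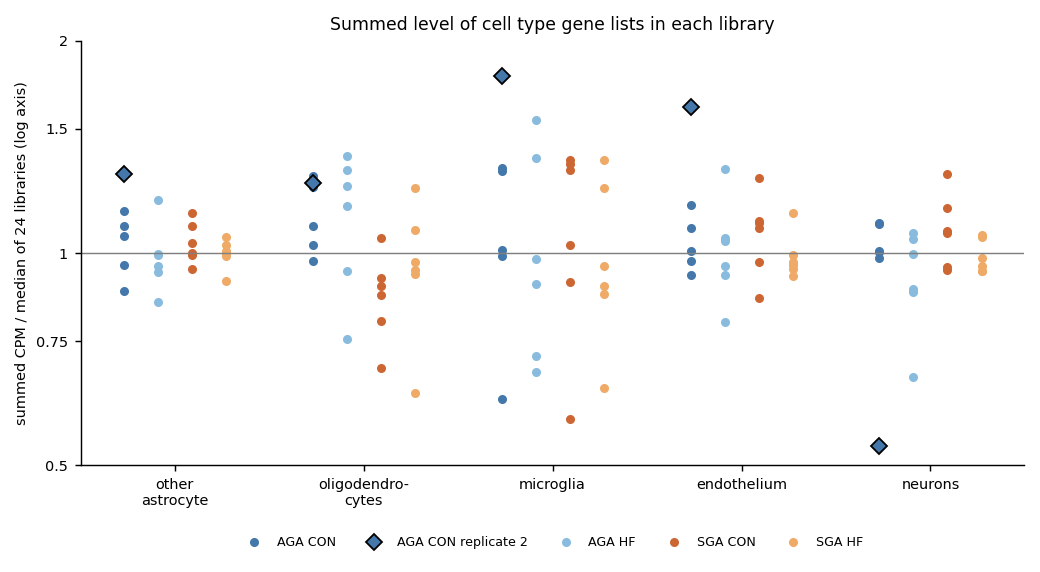
Summed CPM of 5 cell type gene lists in each library, divided by the median of the 24 libraries (log axis), by group. AGA CON replicate 2, the diamond, is the highest library for the other astrocyte, microglial and endothelial lists and the lowest for the neuronal list.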

How the data were processed

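Hippocampal RNA libraries (polyA-selected, TruSeq stranded, single-end) of 24 piglets were used. Per the submitters' processing notes and the study's methods, the authors trimmed reads (Trimmomatic 0.33), aligned them to Sscrofa10.2 (STAR 2.5.2a) and counted exon reads by strand per Entrez gene (featureCounts, Subread 1.5.0). The deposited values are whole-number counts without normalization. The 1 entry without an identifier (0.613 to 1.62% of reads) was left out. Symbols came from an Sscrofa11.1 table matched on gene identifier (23036 of 38882 matched), and coordinates from the files.

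Counts were filtered at 1 CPM in at least 3 libraries, scaled by TMM and fitted in R 4.3.3 with edgeR 4.0.16 (quasi-likelihood) on 4 groups, sex and 5 surrogate variables (sva 3.50.0, log2 CPM, prior count 2), with the Benjamini-Hochberg FDR over 7 contrasts (114282 tests) and a threshold of 0.4. Exact tests were two-sided: all 4096 sign flips of 12 litters for size, and all 924 assignments of 12 litters otherwise. Permutation p of correlations used 100000 resamples. Confidence intervals are normal intervals from the standard error, and the tests were tried on simulated data. The study used voom of limma. limma 3.58.1 and DESeq2 1.42.0 served as alternatives, with other filters, scalings, thresholds and prior counts, litter as a block, each cohort alone, and without AGA CON replicate 2 or SGA HF replicate 4. Same-numbered SGA and AGA piglets of a diet are littermates by the labels. Their deviations had a mean correlation of 0.154 (0.014 to 0.329). Counting error alone sets the floor of 3 counts.

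The members and gene lists were chosen with earlier results of these data known. Named genes were the 10 members, the called genes of each list (at most 4) or else its 2 most abundant, and the 5 genes closest in pattern to PEA15 and to the markers. A few genes that this rule names are not reported here.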

Additional observations from a re-analysis of the deposited data

Results flagged for a closer look

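Among 40 sets of 6 piglets (10 genes in 4 groups), 5 held a value whose gap to its nearest neighbour passed Dixon's critical value for 6 samples, which about 5% of such sets, 1 in 20, do by chance. AGA CON replicate 2 held 3 of them. Its GJA1 level was 324.6 CPM, where the next AGA CON piglet had 220.9 CPM. Its GLUL level was 461 CPM against 327 CPM in the next, and its PEA15 level 4237 CPM against 3701 CPM in the next. S100B reached 1735 CPM in AGA HF replicate 4, where the next AGA HF piglet had 1253 CPM. SOX9 was lowest in SGA HF replicate 3 at 14.4 CPM, where the next SGA HF piglet had 19.9 CPM.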

How the results depend on the processing

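Each value was recomputed under other filters, scalings and prior counts, with DESeq2, without surrogate variables, with cohort in their place, within each cohort, with litter as a block and without AGA CON replicate 2 or SGA HF replicate 4. The correlations and gene lists without AGA CON replicate 2 were alternatives chosen after seeing the data. Precision is limited by 6 piglets a group and, for AQP4, SOX9 and ALDH1L1, by low counts. PEA15 was chosen on its diet difference in these same samples, so its part in the counts below is a description and not a test. The number of the 10 genes called for diet was 1, PEA15. This number was 0 at an FDR threshold of 0.05, with each contrast adjusted alone, in either cohort and with cohort in place of surrogate variables. It was also 0 without surrogate variables, without the filter, with litter as a random effect and without either library. For diet in AGA piglets it went from 1 to 0 under the same settings, the filter excepted, and was 0 without AGA CON replicate 2 and 1 without SGA HF replicate 4. For size it went from 0 to 1 with each contrast adjusted alone. Of the exact tests, the count for sex went from 1 to 0 with cohort means subtracted. It went to 2 without litter 4 and to 0 without litter 7. The count for the diet effect on the littermate difference went from 1 to 0 without litter 4 and to 2 without litter 7. The gene added there was PEA15, whose CON litters share the AGA CON piglets on which it was chosen. The count for cohort went from 2 to 3 without litter 7 with GJA1 (exact permutation test, p = 0.0476). The causes were not tested.

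Littermates share a number, and with the replicate block (litter as a fixed term) the count for size went from 0 to 1, S100B. That fit held no surrogate variables, and its FDR covered fewer contrasts than the main fit. In it the sign for size turned for SLC1A3 (0.10) and ALDH1L1 (-0.048). With litter as a random effect, again without surrogate variables, the sign for size turned for SLC1A3 (0.11) and ALDH1L1 (-0.050). The sign for diet turned for AQP4 (0.093), SLC1A2 (0.011) and GJA1 (0.036), and for PEA15 in the diet contrast of SGA piglets (0.0084). All of these signs also turned without surrogate variables and without a block, so the part of the pairing cannot be told apart. The block changed no other call of the 9 markers.

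Other signs also turned. For size, GFAP (-0.0031) became 0.0045 with a filter over 6 libraries, 0.0020 in DESeq2, 0.0024 with its size factors and 0.0097 without the filter. ALDH1L1 (0.0026) became -0.0034 over 6 libraries, -0.14 in cohort 1, -0.024 with cohort for surrogate variables and -0.027 without them. AQP4 (0.0014) became -0.0033 without the filter, -0.014 and -0.098 in cohorts 1 and 2, -0.062 with cohort for surrogate variables and -0.060 without them. SLC1A3 became 0.061 in cohort 1, 0.036 with cohort for surrogate variables and 0.034 without them, and GLUL became -0.070, -0.017 and -0.017. For diet, ALDH1L1 (0.16), PEA15 (-0.14), SOX9 (-0.13) and GFAP (-0.11) were among those that turned. Cohort 1 gave 0.12 for AQP4, -0.12 for ALDH1L1, 0.021 for GJA1 and -0.056 for GLUL. Cohort 2 gave 0.052 for GFAP, 0.050 for GJA1, 0.080 for AQP4, 0.030 for SLC1A2, 0.036 for S100B, 0.0083 for SOX9 and 0.0045 for PEA15. With cohort for surrogate variables AQP4 was at 0.075, SLC1A2 at 0.013 and GJA1 at 0.035, and without surrogate variables they were at 0.070, 0.0079 and 0.030. PEA15 for diet in SGA piglets became 0.056 in cohort 2 and 0.014 both with cohort for surrogate variables and without them. Over the fits without AGA CON replicate 2 or SGA HF replicate 4, the size value ranged from -0.037 to 0.0018 for GFAP and from -0.050 to 0.014 for AQP4, and the diet value from 0.022 to 0.10 for AQP4, -0.087 to 0.046 for SLC1A2, -0.058 to 0.090 for GJA1 and -0.077 to 0.010 for S100B.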
